A study of Mus musculus with 6 samples.

Results

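The cyclins, cyclin-dependent kinases (CDKs), CDK inhibitors, CDC25 phosphatases, retinoblastoma-family pocket proteins and E2F transcription factors were compared between epiblast stem cells (EpiSC) and mouse embryonic stem cells (mES). Members were taken by gene name from the array's own probe annotation, as all probes of the named cyclin, Cdk, Cdkn, Cdc25, E2f and Rb families, with 1 gene of these families not reported here. They came to 89 probes of 47 genes, of 28786 gene names on the array, and 46 of the 47 genes could be tested, among 20688 tested genes in all. Gene expression was measured on 6 Agilent arrays of 1 colour. The EpiSC group held replicate 1 of line EpiSC-5, replicate 2 of line EpiSC-7 at passage 20 and replicate 3 of the same line at passage 25. The mES group held lines ESF122 (replicate 1) and ESF175/1 (replicate 2), while the labels of replicate 3 differ, its title giving ESF58/2 and its source ESF58/1. All 6 cultures were kept on a feeder layer of irradiated mouse embryonic fibroblasts in DMEM with KSR, EpiSC with the growth factor FGF2 and mES with the cytokine LIF, so that cell type and growth factor cannot be told apart. EpiSC are derived from the postimplantation epiblast, and ES cells from the blastocyst before implantation.

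Passage through the cell cycle is driven by CDKs, kinases that are active only when bound to a cyclin. D-type cyclins with CDK4 and CDK6, and then E-type cyclins with CDK2, phosphorylate the pocket proteins RB1, RBL1 and RBL2, which releases E2F factors to transcribe the genes of S phase, and A- and B-type cyclins with CDK2 and CDK1 carry the cell through S phase and mitosis. INK4 inhibitors bind CDK4 and CDK6, CIP/KIP inhibitors bind cyclin-CDK2 complexes, and CDC25 phosphatases remove inhibitory phosphates from CDKs. Mouse ES cells are known for a short G1 phase, high cyclin E and CDK2 activity, and low levels of D-type cyclins and CDK inhibitors.

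The labelled cell types were checked against their markers. All 8 EpiSC defining markers were past the threshold and higher in EpiSC, and all 9 mES defining markers were past it and lower. Cer1 and Fgf5 entered the test only through EpiSC, and Dppa3, Pecam1 and Nr0b1 only through mES, where they are brighter. The calls of these markers are therefore no support. The 20 fibroblast feeder markers, of which 19 were measured, varied widely between the arrays of each group. Their summed signal, in units of each array's 75th percentile, was 131.7, 80.7 and 16.2 in EpiSC replicates 1 to 3 and 89.7, 18.5 and 114.4 in mES replicates 1 to 3 (the last without Col1a2, which had no value on that array). No feeder marker passed between the groups in limma's test, 0 also at an unadjusted p under 0.05. With such a spread within groups, that does not show equal feeder content in both groups. The arrays lay on 4 slides, each scanned once and each holding 1 group only, so that slide and cell type cannot be told apart. Position on the slide did vary within groups, with replicate 3 of each group at position 1 and the other 4 arrays at position 4. In cultures of this kind, fewer cells of a type and less RNA per cell cannot be told apart, and the p-values reflect only how far these 6 arrays scatter, the 3 of EpiSC coming from 2 lines.

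Values are log2 processed signals relative to each array's 75th percentile, fold changes are EpiSC minus mES on that scale with limma's standard error (SE), and p-values are adjusted over all tested genes, with a threshold of 0.05. In EpiSC, 12 of the 46 tested members passed, 5 of them higher than in mES and 7 lower. The share past the threshold among all tested genes was 26.3%, with 11.3% higher and 14.9% lower in EpiSC, and the members' share of 26.1% lay next to it. The values of the groups did not overlap for 23 of the 46 members, against 48.6% of all tested genes. The members' median change was -0.13, and that of all tested genes was -0.13 as well. The members higher in EpiSC were Ccnd2, Cdk6, E2f3, E2f5 and E2f6, and those lower in EpiSC were Ccne1, Ccna1, Ccnb1, Ccng1, Cdc25a, Cdkn1a and Cdkn2a. The groups did not overlap for any of these 12. Their signs in the array pair at position 1 and in the 4 arrays at position 4 were thus fixed in advance. Those signs are no check on position. All 12 passed with position as a block. Both groups had the same layout of positions, so that block could not change their fold changes. With the 4 arrays at position 4 alone, 12.7% of all tested genes passed, 5.65% higher and 7.07% lower in EpiSC, and 6 of the 46 members did, Ccnd2, Cdk6, E2f5, E2f6, Ccne1 and Ccna1.

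**Figure D1:**
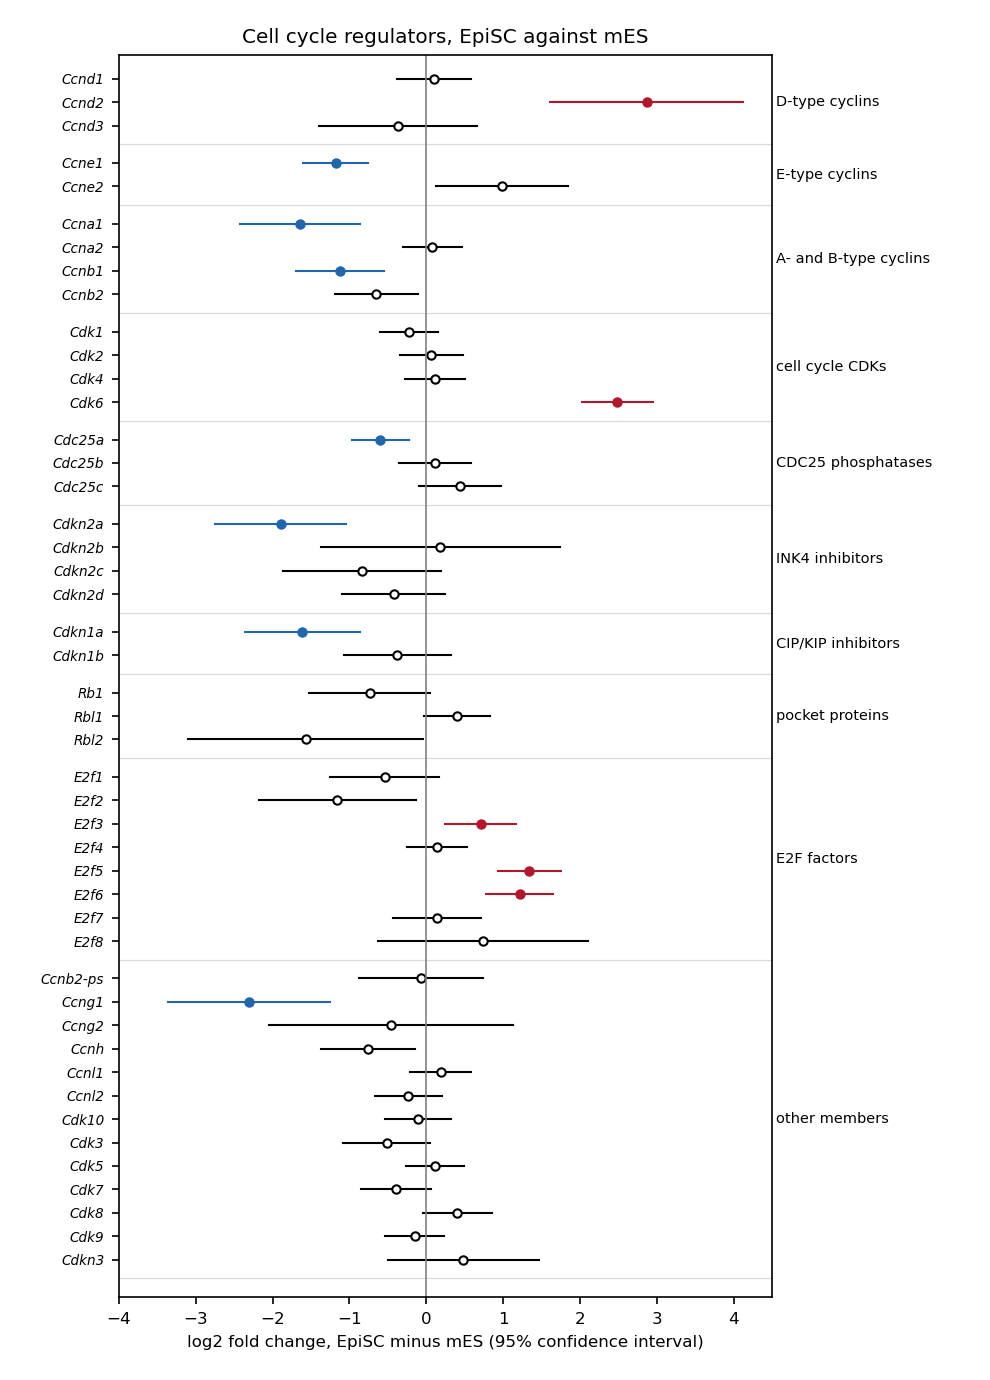
Log2 fold change of each of the 46 tested members, EpiSC minus mES, on the horizontal axis, grouped by role, with the unadjusted 95% confidence interval as a line. Filled points passed the threshold, 5 to the right of 0 (higher in EpiSC, red) and 7 to the left (lower, blue), and open points did not.

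How far single arrays carried these calls differed by gene. Ccnd2, Cdk6, E2f5, E2f6, Ccne1, Cdkn1a and Cdkn2a, 7 of the 12, remained past the threshold when any 1 array was left out. Ccng1 was lost without EpiSC replicate 3 (adjusted p = 0.0516), and Ccna1 without EpiSC replicate 1 (0.0513) or replicate 3 (0.0540). Ccnb1 remained in 2 of the 6 such fits, without EpiSC replicate 2 or mES replicate 3. Cdc25a remained only without mES replicate 3, and E2f3 only without mES replicate 2. Without EpiSC replicate 3, 7 of the 46 members passed, 3 of them lower in EpiSC, against 13.7% of all genes tested, 6.32% higher and 7.38% lower. Without EpiSC replicate 1, 8 members passed, 4 of them lower, against 15.5% of all genes, 6.79% higher and 8.74% lower. The arrays lowest in feeder markers were EpiSC replicate 3 and mES replicate 2, and both were left out in a comparison added after the data were seen. Cdk6 and Cdkn1a were then the members past the threshold (adjusted p = 0.0149 and 0.0499), against 7.43% of all genes tested, 3.96% higher and 3.48% lower. The signs of the 12 could not change there, since their groups did not overlap. The part of feeder cells in the changes was not tested.

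Promoter windows, from 250 bases before each annotated start to 50 after it, were available for 35 members from RefSeq on build GRCm38.p6, and were searched on both strands for the letters of the E2F site, TTTCCCGC, TTTCGCGC, TTTGCCGC and TTTGGCGC. At least 1 of these was present in 8 of the 35 members (22.9%), Cdc25a, Cdk1, Cdk2, Cdkn2a, E2f2, E2f3, E2f7 and Rbl1, and in 704 of 27025 genes with such a window (2.60%). The p53 site was searched in 1 form of its paired core letters, CATGNNNNNNCATG, chosen after the Cdkn1a window had been seen. These letters read the same on both strands. They were present in 1 of the 35 members, Cdkn1a, and in 225 of the 27025 genes (0.833%). Other forms of the p53 site were not searched. The 4 windows below are the 150 bases before the start of the members that passed the threshold and hold either motif there, shown because E2F and p53 are known regulators of members of this family; capitals mark the motif, and no window held both. A match describes the letters and not binding.
Cdc25a (chr9:109875429-109875578, plus strand, E2F letters): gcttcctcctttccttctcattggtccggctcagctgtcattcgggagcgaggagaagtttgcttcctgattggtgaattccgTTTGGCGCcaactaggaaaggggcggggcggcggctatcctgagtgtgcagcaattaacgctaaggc
E2f3 (chr13:29986064-29986213, minus strand, E2F letters on the opposite strand): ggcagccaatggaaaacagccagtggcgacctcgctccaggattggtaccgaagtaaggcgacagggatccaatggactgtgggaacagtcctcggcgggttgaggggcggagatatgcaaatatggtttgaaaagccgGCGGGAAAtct
Cdkn2a (chr4:89294620-89294769, minus strand, E2F letters): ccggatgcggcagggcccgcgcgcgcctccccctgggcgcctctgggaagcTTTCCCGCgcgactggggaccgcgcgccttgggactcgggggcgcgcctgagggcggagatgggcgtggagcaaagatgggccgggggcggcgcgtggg
Cdkn1a (chr17:29090829-29090978, plus strand, p53 letters): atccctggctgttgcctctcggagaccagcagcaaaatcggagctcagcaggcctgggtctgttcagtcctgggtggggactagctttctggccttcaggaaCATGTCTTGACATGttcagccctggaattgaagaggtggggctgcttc
The motif began 67 bases before the start in Cdc25a, 11 in E2f3, 99 in Cdkn2a and 48 in Cdkn1a. E2f3, Cdkn2a and Cdkn1a each have 2 annotated start windows, and the motif was present in 1 of the 2, the one shown. Among these 4 genes, E2f3 was higher in EpiSC and the other 3 were lower.

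Among the D-type cyclins, the growth-factor-responsive partners of CDK4 and CDK6, Ccnd2 was the 1 of 3 that changed. Ccnd2 stood at 2.14, 3.38 and 3.30 in EpiSC replicates 1 to 3, against -0.02, -0.74 and 0.99 in mES replicates 1 to 3. Every EpiSC value lay above every mES value, with EpiSC-5 lower than both EpiSC-7 arrays, and the rise was 2.87 (SE 0.52, adjusted p = 0.0114), or 7.29-fold. All 3 of its probes rose, by 2.87, 2.47 and 2.03. Ccnd1 had values of 1.70, 1.85 and 1.69 in EpiSC and 1.82, 1.32 and 1.80 in mES, and its difference of 0.10 (95% interval -0.38 to 0.58, adjusted p = 0.730) did not pass. Ccnd3 had values of 2.68, 2.39 and 3.07 in EpiSC and 2.53, 2.69 and 4.04 in mES, where replicate 3 stood above the other 5 arrays. Its difference was -0.37 (95% interval -1.40 to 0.66, adjusted p = 0.539).

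Of the 4 cell cycle CDKs, Cdk6, a D-cyclin-dependent kinase of G1, changed, and it changed with the smallest adjusted p of all members. Cdk6 stood at 3.84, 4.01 and 4.36 in EpiSC, against 1.55, 1.54 and 1.66 in mES. The groups were far apart and the mES arrays lay close together, and the rise was 2.49 (SE 0.19, adjusted p = 0.000666), or 5.61-fold. It passed under each of the 20 alternative settings tried, all of which used this same brightest probe except the mean of its probes. Of its other probes, the dimmer, at -2.73, -2.69 and -1.75 in EpiSC, rose by 1.96. The brighter of them, at -0.83, 0.84 and -0.50 in EpiSC, gave -0.31 and did not pass. The probes thus disagreed, and the mean of all 3 rose by 1.38. Cdk4, the other kinase of the D-type cyclins, had values of 3.74, 3.97 and 3.75 in EpiSC and 3.61, 3.80 and 3.71 in mES, which overlapped (0.12, 95% interval -0.27 to 0.50, adjusted p = 0.620). Cdk2, the kinase of the E- and A-type cyclins, differed by 0.07 (95% interval -0.34 to 0.48, adjusted p = 0.791). Cdk1, the mitotic kinase, listed on the array under its older name Cdc2a, differed by -0.23 (95% interval -0.60 to 0.15, adjusted p = 0.306). All 3 intervals lay below that of Cdk6, which ran from 2.03 to 2.95.

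The E-type cyclins activate CDK2 at the entry into S phase, and Ccne1 fell. Ccne1 stood at 4.84, 5.18 and 5.04 in EpiSC, against 6.36, 6.13 and 6.10 in mES. The values did not overlap, and the change was -1.18 (SE 0.18, adjusted p = 0.00595), 2.26-fold lower in EpiSC, with its other probe at -1.07 and past the threshold too. Ccne2 had higher values in EpiSC, at -0.97, -1.21 and -1.11 in EpiSC against -1.62, -1.72 and -2.90 in mES, without overlap. Its difference of 0.98 (95% interval 0.13 to 1.84, adjusted p = 0.0857) did not pass, and mES replicate 3 lay well below the other mES arrays. The difference between the Ccne1 and Ccne2 changes was not tested.

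Of the A- and B-type cyclins, Ccna1 and Ccnb1 fell. Ccna1, a cyclin A known from male meiosis, was dim, at -4.56, -3.98 and -4.78 in EpiSC against -2.39, -2.66 and -3.34 in mES, though well above background on all 6 arrays. The change was -1.65 (SE 0.32, adjusted p = 0.0144), 3.13-fold lower in EpiSC, with no overlap, and with normexp background correction it was -0.96 (adjusted p = 0.0126). Ccna2, the cyclin A of dividing somatic cells, overlapped between the groups (0.08, 95% interval -0.31 to 0.47, adjusted p = 0.734). Ccnb1, the main mitotic cyclin, stood at 2.52, 3.12 and 2.63 in EpiSC, against 4.02, 4.04 and 3.57 in mES. By this brightest probe Ccnb1 fell by 1.12 (SE 0.24, adjusted p = 0.0184), while its other 2 probes gave 0.06 and -0.31 and did not pass. The fall of Ccnb1 thus rested on 1 of its 3 probes. Ccnb2, the other B-type cyclin of mitosis, stood at 4.72, 5.44 and 4.88 in EpiSC, against 5.62, 5.67 and 5.70 in mES. Its groups did not overlap, and its difference of -0.65 (95% interval -1.19 to -0.11, adjusted p = 0.0765) did not pass, though it did without EpiSC replicate 2 (adjusted p = 0.0249) and when a mean-variance trend was fitted (0.0417). Ccnb3 did not rise well above background on any of the 6 arrays and was not tested.

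**Figure D2:**
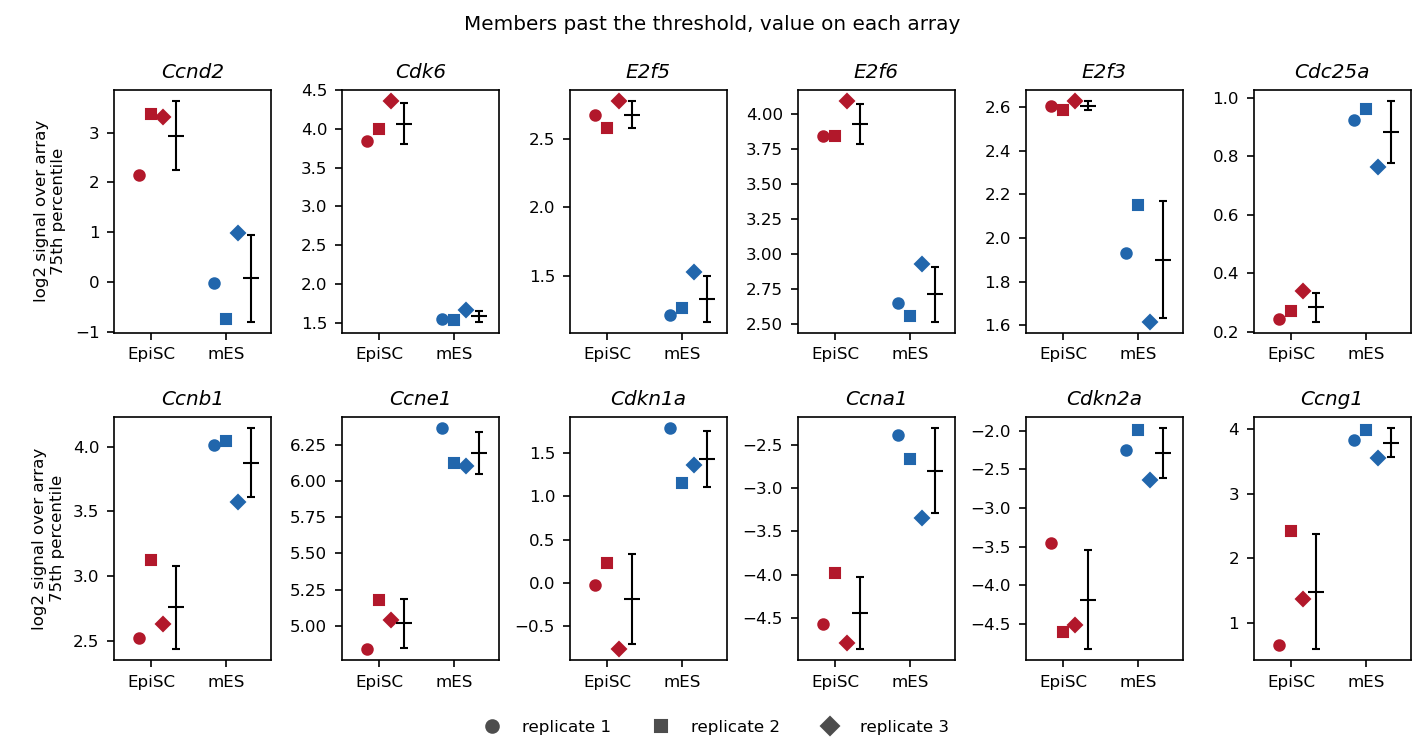
Value of each of the 12 members past the threshold on each of the 6 arrays, as log2 signal over the array's 75th percentile on the vertical axis of each panel, EpiSC (red) left and mES (blue) right. Marker shape gives the replicate, and the black bar beside each group is its mean with SD (n = 3). The groups did not overlap in any panel, and the vertical axes differ between panels and do not start at 0.

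The CDC25 phosphatases activate CDKs, and Cdc25a, which acts at S phase entry and later, fell slightly. Cdc25a stood at 0.24, 0.27 and 0.34 in EpiSC, against 0.92, 0.96 and 0.76 in mES. The values were close within each group, and the change was -0.60 (SE 0.15, adjusted p = 0.0337), 1.51-fold lower in EpiSC. Its second probe showed no difference past the threshold, at -0.0040. Cdc25b (0.11, 95% interval -0.36 to 0.58, adjusted p = 0.703) and Cdc25c (0.44, 95% interval -0.10 to 0.97, adjusted p = 0.187), which act at entry into mitosis, did not pass.

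Among the 4 INK4-locus and INK4-family inhibitors, Cdkn2a fell and the others did not pass. Cdkn2a, which encodes the CDK4 and CDK6 inhibitor INK4A and, in another reading frame, the p53-stabilising protein ARF, was dim at -3.45, -4.60 and -4.51 in EpiSC against -2.25, -2.0 and -2.64 in mES. The groups did not overlap, EpiSC-5 lay nearest to mES, and the change was -1.89 (SE 0.35, adjusted p = 0.0122), 3.72-fold lower in EpiSC. With normexp background correction the change of this dim probe was -1.14 (adjusted p = 0.00383). It was measured by 1 probe, and the files do not say which of these transcripts that probe reports. Cdkn2b, its neighbour in the genome, stood at 1.70, -0.51 and 1.33 in EpiSC, against 1.17, -0.19 and 0.99 in mES. One array of each group, EpiSC replicate 2 and mES replicate 2, lay far below the rest, and the difference of 0.18 had a 95% interval of -1.37 to 1.74 (adjusted p = 0.852), so that changes of over 2-fold either way were within it. Cdkn2c (-0.84, 95% interval -1.86 to 0.19, adjusted p = 0.187) and Cdkn2d (-0.42, 95% interval -1.09 to 0.25, adjusted p = 0.291) overlapped between the groups.

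Of the CIP/KIP inhibitors reported, Cdkn1a fell. Cdkn1a, the p53-induced inhibitor p21, stood at -0.02, 0.23 and -0.76 in EpiSC, against 1.78, 1.15 and 1.36 in mES. Every EpiSC array lay below every mES array, and the change was -1.61 (SE 0.31, adjusted p = 0.0134), 3.06-fold lower in EpiSC. Within each group Cdkn1a was lowest on the array lowest in feeder signal, EpiSC replicate 3 and mES replicate 2, and the part of feeder cells in its change was not tested. Cdkn1b, the inhibitor p27, overlapped between the groups, with a difference of -0.38 (95% interval -1.07 to 0.32, adjusted p = 0.358).

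**Figure D3:**
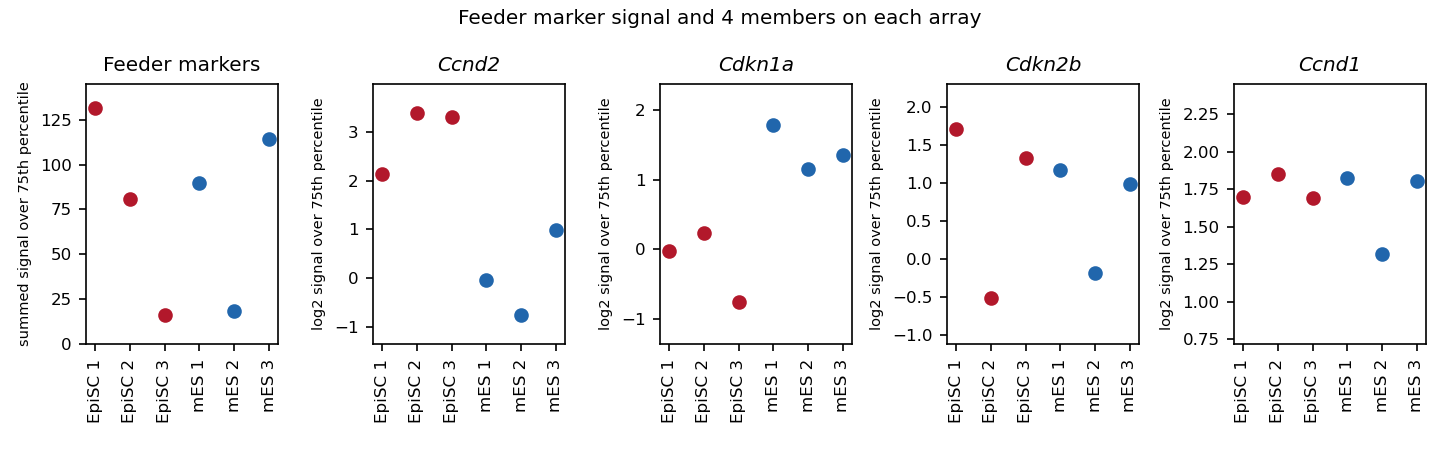
Summed signal of the 19 measured fibroblast feeder markers (left, linear scale in units of the array's 75th percentile) and log2 signal of Ccnd2, Cdkn1a, Cdkn2b and Ccnd1 on each array, EpiSC replicates 1 to 3 in red and then mES replicates 1 to 3 in blue. Feeder signal was lowest in EpiSC replicate 3 (16.2) and mES replicate 2 (18.5), while Ccnd2 and Cdkn1a separated the groups and Cdkn2b and Ccnd1 did not.

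None of the 3 pocket proteins, the E2F-binding repressors, passed limma's test. At an unadjusted p under 0.05 in limma 1 did, a cut for which the share of all genes is not given. Rb1 stood at 0.01, -0.95 and 0.30 in EpiSC, against 0.58, 0.46 and 0.54 in mES. All EpiSC values lay below the mES values, but EpiSC replicate 2 lay far from the other EpiSC arrays, and the difference of -0.74 (95% interval -1.53 to 0.05, adjusted p = 0.141) did not pass. Rbl1, or p107, differed by 0.40 (95% interval -0.03 to 0.83, adjusted p = 0.145) without overlap. Rbl2, or p130, stood at -3.62, -3.92 and -5.29 in EpiSC, against -3.84, -2.48 and -1.80 in mES, and its difference of -1.57 (95% interval -3.10 to -0.04, adjusted p = 0.113) did not pass by the brightest probe. Its other probe stood at -5.28, -5.43 and -6.46 in EpiSC, where 1 of 3 arrays was well above background, against -3.80, -3.68 and -3.50 in mES, where all 3 were. That probe entered the test only through mES, where it is brighter, so no size is given for its change.

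Of the 8 E2F factors, 3 passed as higher in EpiSC and 0 as lower, beside 11.3% and 14.9% of all tested genes. So few genes do not show a trait of the E2F factors as a group. E2f5, a repressor-type E2F that works with RBL1 and RBL2, stood at 2.68, 2.57 and 2.77 in EpiSC, against 1.22, 1.26 and 1.53 in mES. The arrays were tight within each group, and the rise was 1.34 (SE 0.17, adjusted p = 0.00352), or 2.53-fold, with its second tested probe at 1.58 and past the threshold. E2f6, a pocket-protein-independent repressor found in Polycomb-type complexes, stood at 3.85, 3.85 and 4.09 in EpiSC, against 2.65, 2.56 and 2.93 in mES. E2f6 rose by 1.22 (SE 0.18, adjusted p = 0.00586), or 2.33-fold. Its dimmer probe was well above background on all 3 EpiSC arrays and on none of the mES arrays, so that probe gives only a bound, and the mean over both probes, 1.99, includes it. E2f3, an activator of S phase genes, stood at 2.61, 2.59 and 2.63 in EpiSC, against 1.93, 2.15 and 1.62 in mES. It rose by 0.71 (SE 0.19, adjusted p = 0.0378), or 1.63-fold, by its brightest probe, while 2 dimmer probes gave 0.06 and -0.0023 and did not pass. The rise of E2f3 was thus seen with 1 of its 3 tested probes.

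The other activator E2Fs did not pass. E2f2 stood at 0.77, 0.36 and -0.0036 in EpiSC, against 0.68, 1.68 and 2.24 in mES, and the groups overlapped through EpiSC replicate 1 and mES replicate 1. Its difference was -1.16 (95% interval -2.18 to -0.14, adjusted p = 0.0882), and without mES replicate 1 it passed at -1.59 (adjusted p = 0.0270). E2f1 differed by -0.54 (95% interval -1.25 to 0.17, adjusted p = 0.211). E2f4, a repressor-type E2F, differed by 0.14 (95% interval -0.25 to 0.52, adjusted p = 0.549). Of the atypical repressors, E2f7 differed by 0.14 (95% interval -0.43 to 0.71, adjusted p = 0.687). E2f8 stood at -0.23, 0.21 and 0.20 in EpiSC, against 0.05, -0.03 and -2.05 in mES, where replicate 3 was far below the other 5 arrays. Its difference was 0.74 (95% interval -0.63 to 2.11, adjusted p = 0.360).

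The remaining 13 members were transcriptional and other cyclins and CDKs, Cdkn3 and a cyclin pseudogene. They held 1 gene past the threshold, Ccng1. Ccng1, a cyclin G induced by p53, stood at 0.65, 2.42 and 1.37 in EpiSC, against 3.83, 3.99 and 3.55 in mES. The EpiSC arrays were widely spread and still all below mES, and the change was -2.31 (SE 0.44, adjusted p = 0.0130), 4.95-fold lower in EpiSC. Its second probe also fell, by 0.84 (adjusted p = 0.0290 over all probes), and the mean of both by 1.57. Ccnh, the cyclin of the CDK-activating kinase, had a difference of -0.76 by the brightest of 4 probes (95% interval -1.38 to -0.14, adjusted p = 0.0715), and its probes disagreed, at -0.82 (past the threshold), 0.97 and 0.25. Ccnh passed with normexp background correction (adjusted p = 0.0300), with a mean-variance trend (0.0440) and without EpiSC replicate 2 (0.0300). The other 11 lay between -0.52 (Cdk3) and 0.48 (Cdkn3), with Ccng2 at -0.46, and none passed. They include Ccnb2-ps, a pseudogene, at -0.07, and whether transcripts of Ccnb2 reach its probe was not tested.

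Probes of 1 gene were not interchangeable in this family. Of 27 members with more than 1 tested probe, 11 showed a passing probe, and the probes of 8 differed in sign. Of 82 tested member probes, 10 were past it and higher in EpiSC and 11 past it and lower, against 11.7% and 14.3% of all 29549 tested probes. These counts include the dimmer probes of E2f6 and Rbl2, which entered the test only through the group where they were brighter. All tested probes passed in the same direction for Ccnd2, E2f5, Ccne1 and Ccng1. In Cdk6, E2f3, Ccnb1 and Cdc25a at least 1 tested probe did not pass, while Ccna1, Cdkn1a and Cdkn2a had 1 probe each.

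**Figure D4:**
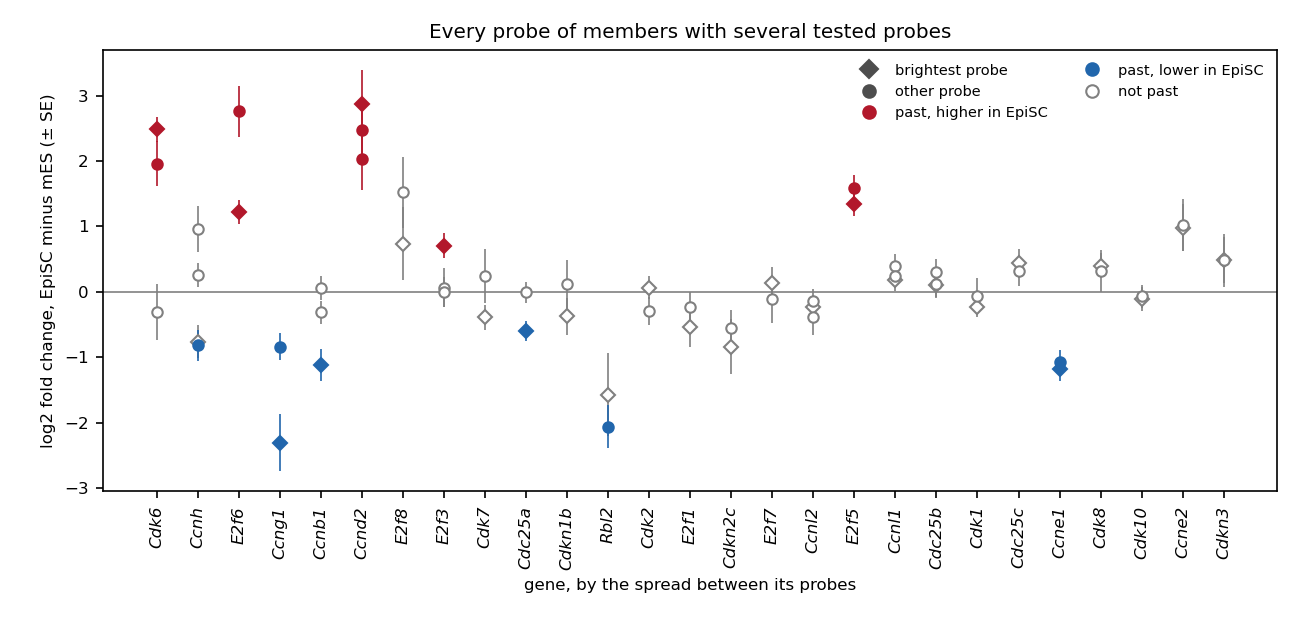
Log2 fold change, EpiSC minus mES, with SE, of every tested probe of the 27 members that have several, genes ordered along the horizontal axis from the widest spread between probes to the narrowest. Diamonds are the brightest probe of a gene and circles the others, and filled symbols passed over all probes (red higher, blue lower in EpiSC). Cdk6, with probes at 2.49, 1.96 and -0.31, has the widest spread.

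The 3 mES lines and the EpiSC lines also differed among themselves, which is described here without a test. EpiSC-5 lay above the mean of the EpiSC-7 arrays by 1.29 for Cdkn2b, 1.10 for Cdkn2a and 1.07 for Cdkn2c, and below it by 1.25 for Ccng1 and 1.20 for Ccnd2. In mES, replicate 3 held the lowest value of Ccne2, E2f7 and E2f8 and the highest of Ccnd2 and Ccnd3. Feeder signal was also highest in EpiSC-5 and in mES replicate 3 within their groups, and its part in these differences was not tested.

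Genes around the family were read from 6 lists, whose counts stand against 11.3% of all tested genes higher and 14.9% lower in EpiSC and a median over all genes of -0.13. Of 20 p53 pathway genes, 13 were lower in EpiSC and 1 was higher, with a median of -1.18. The largest falls were those of Trp53inp1, a p53-induced autophagy and stress protein, Eda2r, a death-domain receptor of the TNF family, and Sesn2, a stress-induced sestrin. Trp53inp1 stood at 2.08, 2.85 and 2.46 in EpiSC, against 4.56, 4.49 and 4.44 in mES, a change of -2.03 (SE 0.23, adjusted p = 0.00246), and Eda2r and Sesn2 changed by -1.95 and -1.65. Btg2, an antiproliferative p53 target, was the exception and rose by 1.12 (adjusted p = 0.0412). Trp53 itself, named after its values were seen, stood at 1.85, 1.88 and 1.88 in EpiSC, against 1.22, 1.49 and 1.38 in mES, and its difference of 0.51 (adjusted p = 0.0570) did not pass. Cdkn1a and Ccng1, both known p53 targets, changed in the direction of the list. Btg2 did not pass when any 1 array other than EpiSC replicate 3 was left out. The list's count of lower genes ran from 9 to 12 when 1 array was left out, was 8 in the arrays at position 4 and 5 without the arrays lowest in feeder markers. Of all tested genes, 7.07% were lower in EpiSC at position 4 and 3.48% without the arrays lowest in feeder markers. Without EpiSC replicate 3 or 1 it was 7.38% and 8.74%. Leaving out arrays thus lowered the calls over all genes too, which also holds for the lists that follow.

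Of 24 S phase and replication genes measured, 5 were lower in EpiSC and none was higher by limma, with a median of -0.38. At an unadjusted p under 0.05 in limma, 11 were lower and 0 higher. The share of all genes at that unadjusted cut is not given, here or for the lists that follow. Whether such counts exceed it was not tested. The largest falls were those of Orc1, a subunit of the origin recognition complex (-1.36, adjusted p = 0.00383), Pola1, the catalytic subunit of DNA polymerase alpha (-1.34, adjusted p = 0.00745), and Cdt1, which licenses origins (-1.15, adjusted p = 0.00825). The count of lower genes past the adjusted threshold was 3 under median scaling and under quantile normalization. It was 3 without any 1 of the arrays other than EpiSC replicate 2, and 7 without that array. Of 23 mitotic genes, Prc1 (-0.88) and Ube2c (-0.63) fell and none rose (4 and 0 at an unadjusted p under 0.05), with a median of -0.25. These 2 calls were lost without mES replicate 2, EpiSC replicate 1 or EpiSC replicate 3, each of which left 0. The proliferation marker Mki67 is among the mitotic genes that did not pass (0.34, adjusted p = 0.237), and it is named here after its values were seen.

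Of 12 partners of the DREAM complex and E2F, 3 fell and 0 rose (5 and 0 at an unadjusted p under 0.05 in limma), with a median of -0.36. Mybl2, or B-MYB, the transcription factor of late S and G2 phase and itself an E2F target, stood at 1.66, 1.98 and 1.80 in EpiSC, against 4.58, 4.48 and 5.16 in mES. It was far lower in every EpiSC array, at -2.93 (SE 0.23, adjusted p = 0.000737), or 7.59-fold. Arid4a, an RB-binding protein, and Rbbp4, a histone-binding chaperone, fell by 0.93 and 0.81. Without mES replicate 1, mES replicate 2 or EpiSC replicate 3, 1 gene of this list was lower past the threshold.

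Of 25 CDK regulators outside the family's own names, 4 were higher and 3 lower in EpiSC, with a median of -0.24, beside the 11.3%, 14.9% and -0.13 of all tested genes. Cdc14a, a phosphatase that opposes CDKs (1.16), Ccnj, a cyclin of little-known function (1.02), and Cdk2ap1, a CDK2-associated protein (0.89), led those that rose. Chek2 (-1.15) and Chek1 (-0.67), the DNA damage and replication checkpoint kinases, and Dbf4, the activating subunit of the CDC7 kinase (-0.80), fell. None of these 3 falls passed without mES replicate 1 or 2 or EpiSC replicate 1 or 3, and 2 genes were higher past the threshold without EpiSC replicate 3, against 4 with it. Of 13 regulators of D-type cyclin and INK4 genes, 4 rose and 2 fell, with a median of 0.20. Mycl, a MYC family factor (2.92, adjusted p = 0.000963), and the inhibitors of DNA binding Id1 (2.00) and Id2 (1.89) rose. Tbx3, a repressor of Cdkn2a and of Cdkn1a in other cells and also on the list of mES markers (-5.50, adjusted p = 0.0165), and Cbx7, a Polycomb chromobox protein that represses the Cdkn2a locus (-1.53, adjusted p = 0.00788), fell. Without EpiSC replicate 3, this list had 2 genes higher and 1 lower past the threshold.

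**Figure D5:**
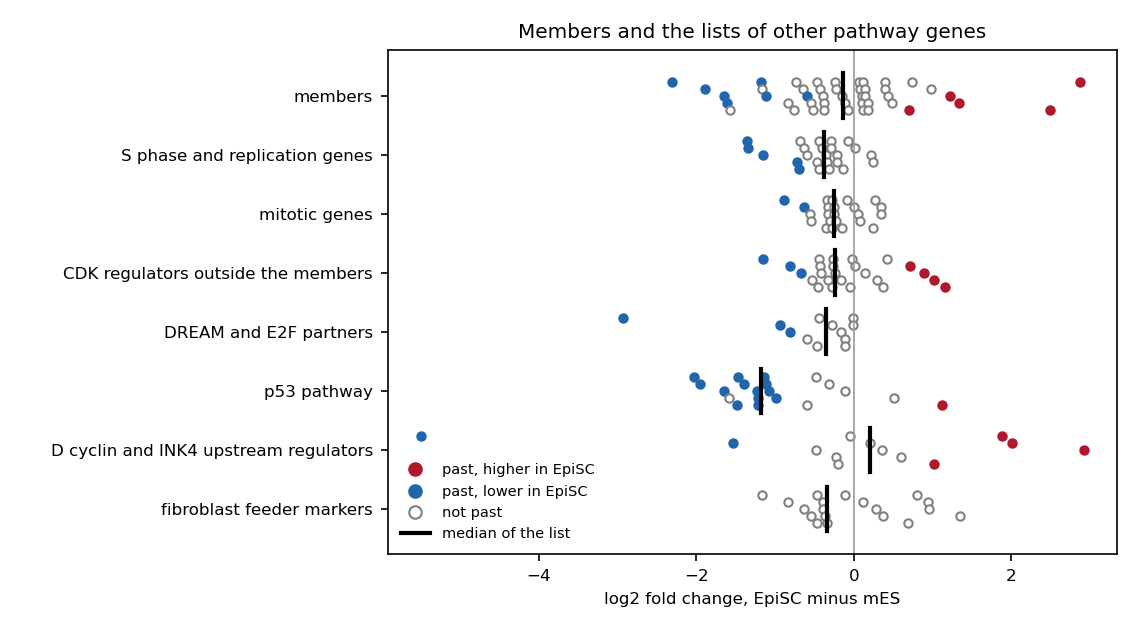
Log2 fold change, EpiSC minus mES, of each measured gene (points) of the 46 members, the 6 lists of other pathway genes and the fibroblast feeder markers, with the median of each as a black bar. Filled points passed the threshold (red higher, blue lower in EpiSC). The p53 pathway median lies at -1.18, the members' median at -0.13, and no feeder marker passed.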

How the data were processed

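Total RNA of 6 cultures, extracted with TRIzol and labelled with Cy3 per the labels' protocols, was hybridised to 1-colour Agilent arrays. The deposited scanner files hold linear spot intensity. Per the file headers, the software was Agilent Feature Extraction 9.1.3.1 and spatial and multiplicative detrending were on. Array medians differed, and the scaling between arrays described next was applied here. The value table that the authors deposited holds the same intensity, rounded (largest difference 0.00716 on the log2 scale, with column medians of 126, 87.2 and 90.9 for EpiSC and 85.1, 92.3 and 74.6 for mES). It is linear and uncentred, with no ratio, and was tried as an alternative.

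Control spots and outlier spots (12 to 24 per array) were left out. Saturated spots numbered 0. The log2 processed signal minus each array's 75th percentile was averaged over the spots of a probe. Of 41174 probes, 22951 were named through their RefSeq accession (68 of the 89 member probes, which had 143 spots), and the others kept the array's name. Probes entered the test where all arrays of 1 group or both had them well above background, with at most 1 missing value per group (82 member probes entered and 7 did not), and its brightest entering probe stood for a gene. Between 66.2% and 75.4% of probes were well above background, and 3 arrays per group limit the precision. The fit of EpiSC against mES used lmFit and eBayes of limma 3.58.1 (R 4.3.3) without covariates (4 residual degrees of freedom), two-sided and adjusted by the Benjamini-Hochberg method over 20688 genes. All p-values of genes are limma's. Confidence intervals of fold changes are unadjusted. The procedure was tested on simulated data. The position on the slide is that of the file headers, and so are the 4 slides and scans.

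All members could be named, with full statistics for those past the threshold and for the core cyclins, CDKs, inhibitors, pocket proteins and E2Fs, and up to 3 genes past the threshold per other list and direction. Members, lists and tests were chosen with earlier results of these data known. The 20 alternatives concern scaling, background correction, the filter, the choice of probe, the variance model, slide, position, line and single arrays. Probe coordinates were not used here.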

Additional observations from a re-analysis of the deposited data

How the results depend on the processing

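The 12 members past the threshold in the comparison reported remained so, 12 of 12, with quantile normalization, normexp background correction, the deposited value table, no filter on dim probes, probes well above background on all arrays, every probe tested by itself, a mean-variance trend and position as a block. Apart from quantile normalization and normexp, these settings refitted the same probe values of the 12, rounded in the value table. They are thus no independent check on the fold changes. Members were also gained: Ccnh with normexp (13 in all), Ccnb2 and Ccnh with the trend (14), Rbl2 with the mean of a gene's probes, E2f2 without mES replicate 1, and Ccnb2 and Ccnh without EpiSC replicate 2. Of all genes, 5435 passed as reported, 6459 with normexp and 5958 with the trend, so calls rose there over all genes too. Without mES replicate 1, 3580 passed, and without EpiSC replicate 2, 4759. The mean for Rbl2 includes its dimmer probe, which entered only through mES, so the gain of Rbl2 is no support. With median scaling 11 remained (Cdc25a did not), with the EpiSC-7 arrays averaged 10, and with the mean of a gene's probes 9. Genes passing in all numbered 5117, 4418 and 5208 in these settings, in that order. No member past the threshold changed sign under any of the 20 alternatives. In the fits on fewer arrays this was fixed in advance, since the groups did not overlap for any of the 12. It was also fixed in the fits that used the same probe values. Median and quantile scaling moved the median change of all genes to -0.04 and -0.02 (from -0.13 as reported). Without the filter, 8774 genes passed in all, 6275 of them lower in EpiSC.

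With slide as a random block, 25 members passed (11 higher, 14 lower in EpiSC), and 11786 genes in all (4852 higher, 6934 lower). The fitted correlation was negative (-0.68), which lowers the errors of a difference between groups that lie on separate slides, so these gained calls are no support. On the 4 arrays at position 4, 6 members passed (2 of them lower), and 2723 genes in all (1209 higher, 1514 lower), with fewer arrays in the fit. Without the arrays lowest in feeder markers, added after seeing the data, 2 members passed (1 higher, 1 lower), and 1576 genes in all (839 higher, 737 lower), again with 4 arrays. Leaving out each array in turn gave 7 to 12 members, 4 to 5 higher and 3 to 8 lower. It gave 2896 to 4946 genes in all, 1336 to 2078 higher and 1560 to 2868 lower, with the fewest without EpiSC replicate 3, and 3580 without mES replicate 1, 3407 without mES replicate 2 and 3233 without EpiSC replicate 1. No paired analysis was possible because replicate numbers were given in accession order and do not link arrays.

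Members that did not pass turned sign in places, and the cause was not tested. Ccnb2-ps became 0.0210 with median scaling, 0.0303 with quantile normalization, 0.0276 with slide as a block and 0.0054 without the arrays lowest in feeder markers. Cdk9 became 0.0362 with quantile normalization, and Cdk2 became -0.113 with the mean of its probes. Cdkn2b became -0.318 with slide as a block. At position 4, Ccna2 became -0.0200, Cdk2 -0.0515, E2f7 -0.0515 and E2f8 -0.0182. Without the arrays lowest in feeder markers, Ccnd1 became -0.0373, Ccng2 0.290, Cdc25b -0.0619, Cdk10 0.0638, Cdk2 -0.0054 and Cdkn2b -0.486. Leaving out each array in turn, the change ran from -0.401 to 0.216 for Ccnb2-ps, -0.0650 to 0.189 for Ccnd1, -0.649 to 0.101 for Ccnd3, -0.9996 to 0.0850 for Ccng2, -0.0309 to 0.161 for Cdk2, -0.248 to 0.858 for Cdkn2b and -0.0892 to 0.256 for E2f7. Signal over background limited Ccnb3, which could not be tested, and the dimmer probes of E2f6, E2f8 and Rbl2.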
